A study of Mus musculus with 23 samples.

Results

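Colon tumors were compared with colon non-tumor tissues of HFD-fed mice that carried BF BSHhigh, a Bacteroides fragilis strain with raised bile salt hydrolase (BSH) activity. The comparison held 7 of the 23 libraries of the series, 3 of tumor and 4 of non-tumor tissue, and its members were chosen by their labels and not by any measured value. The mice were male C57BL/6 Cdx2Apcf/w animals, 6 to 8 weeks old at the start, in which Cre under the Cdx2 promoter acts on 1 floxed copy of Apc. They ate a 60% fat diet for 12 weeks and were colonized 2 times a week, per the labels, with BF638R bsh+, which holds, on a vector, a bsh gene taken from a different B. fragilis strain. Controls for the colonization were mice given BF638R bsh-, the same strain with the empty vector (BF BSHlow, 4 tumor and 4 non-tumor libraries). Antibiotics were given before colonization, per the study's methods. Every mouse in all 4 groups carried the floxed allele, the Cre and the diet, and none was left without B. fragilis. Nothing in the labels says whether a tumor and a non-tumor tissue came from the same mouse, or whether the samples of a group came from separate mice, so p-values measure the spread between these samples only.

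The 3 tumor libraries stand in the deposited count table under names that repeat those of BF BSHlow tumors. They were taken as the BF BSHhigh tumors because the study's supplementary mRNA-seq table lists the same values under that group (5988 of 5988 values compared were within 0.5 counts), and they are called tumors a, b and c because the table does not say which is which. Library totals were 13369559 to 17903008 expected counts, and 30089 of 55449 genes had no count in any of the 7. The tissue types were far apart: a principal component analysis placed 79.5% of the variance on its first axis, with the non-tumor tissues between -79.2 and -72.8 and the tumors at 79.4 (a), 104.7 (b) and 119.3 (c). No 2 libraries of a group agreed within sampling noise (chi-square per degree of freedom 16.6 to 60). Levels below are in CPM, counts scaled to a common library size with TMM factors, and fold changes are tumor against non-tumor on the log2 scale with standard errors (SE). A gene is called where its adjusted p is under 0.05 and its log2 fold change over 1 or under -1 in edgeR's quasi-likelihood test with Benjamini-Hochberg adjustment over 15653 genes, and adjusted p-values are from that test.

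The colon surface is renewed from stem cells at the base of the crypts. WNT ligands hold beta-catenin in the nucleus of these cells, where with TCF/LEF factors it turns on proliferation and stem cell genes, and APC marks beta-catenin for destruction. As cells climb the crypt they leave the cycle and become absorptive colonocytes, which take up salt and water, mucus-making goblet cells or hormone-making enteroendocrine cells. Loss of APC keeps the WNT program on and is the usual first step of colon adenomas. Bile acids, which BSH frees from their glycine or taurine, act in the gut wall through nuclear receptors such as FXR, encoded by Nr1h4, and through the membrane receptor encoded by Gpbar1.

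Tumors differed widely from non-tumor tissue. Of 15653 genes tested, 2284 were called higher (14.6%) and 2349 lower (15%) in the tumors, and the libraries of the 2 tissues did not overlap for 9720 (62.1%). Over all genes the fold change had a median of 0.04 on the log2 scale. Among the calls, 339 genes rose by more than 4 on the log2 scale and 214 fell by more than 4. WNT targets, matrix metalloproteinases and cell cycle genes rose, while genes of absorptive, goblet, enteroendocrine and smooth muscle cells fell. Of the 38 gene lists, 467 of the 511 members were tested.

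**Figure D1:**
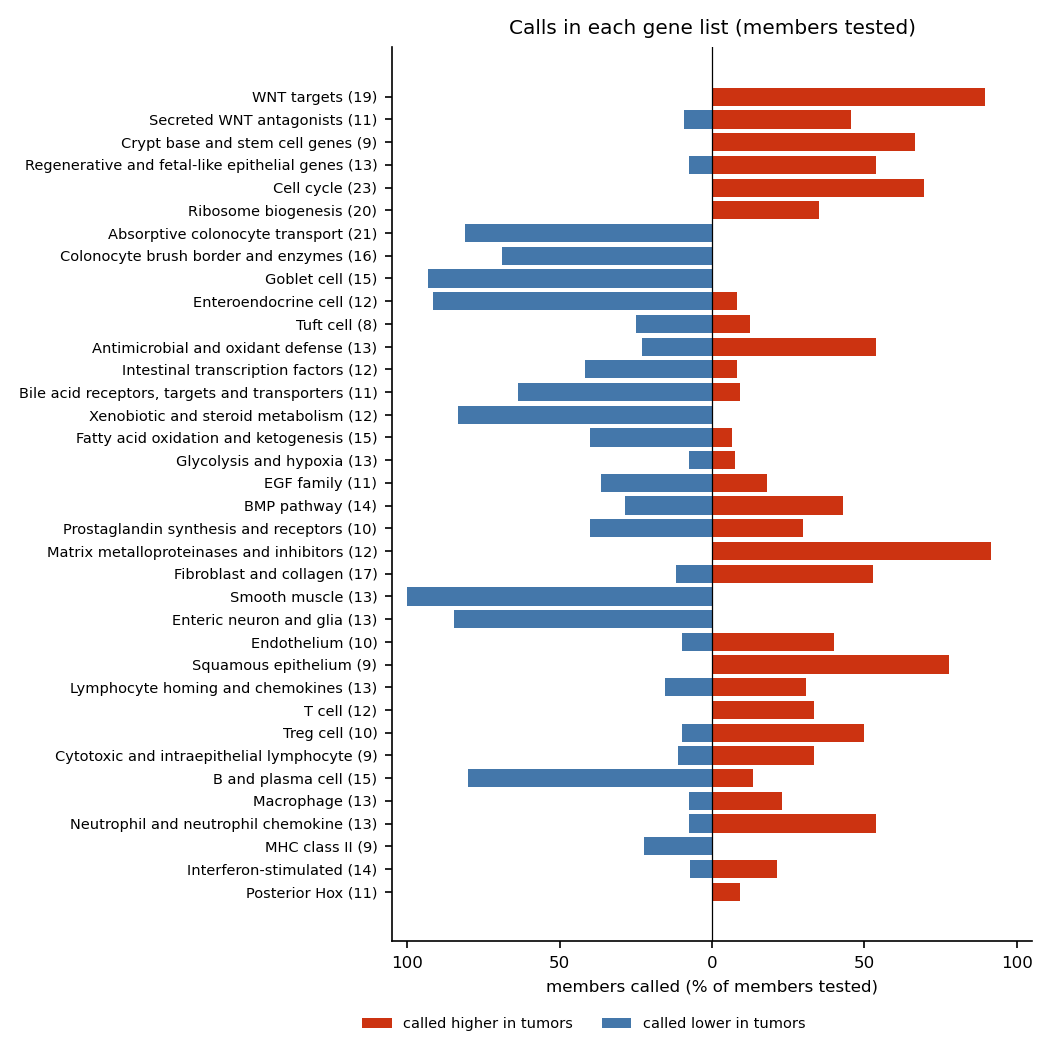
Share of the tested members of each gene list called higher (red, to the right) or lower (blue, to the left) in BF BSHhigh tumors, in percent, for lists with 5 or more members tested (number in brackets). Over all genes 14.6% were called higher and 15% lower. The smooth muscle bar reaches 13 of 13 members lower and the WNT target bar 17 of 19 higher.

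WNT target genes rose together. Of 19 targets, all tested, 17 were called higher and none lower, with a median log2 fold change of 2.93. The libraries of the 2 tissues did not overlap for any of the 19, as was the case for 62.1% of all genes. Axin2 (ENSMUSG00000000142.15, chr11:108920349-108950783 on the plus strand of GRCm38), a feedback inhibitor that is read as a gauge of the pathway, stood at 22, 19.4, 25.7 and 24.1 CPM in the non-tumor tissues and at 206, 317 and 264 CPM in tumors a, b and c. All 3 tumors thus lay far above the 4 non-tumor values, and the log2 fold change was 3.52 (SE 0.17), adjusted p = 1.03e-05. Nkd1, another feedback inhibitor, stood at 10.2, 9.51, 8.44 and 6.27 CPM against 289, 508 and 412 CPM, a log2 fold change of 5.54 (SE 0.24), adjusted p = 8.37e-06. Sp5, a transcription factor downstream of WNT, was close to the floor in non-tumor tissue, at 0.337, 0.136, 0.134 and 0.326 CPM, and reached 13.4, 20.5 and 18.4 CPM in the tumors. Its log2 fold change was 6.20 (SE 0.33), adjusted p = 1.34e-05. Sp5 had at most 5 counts in any non-tumor library and passed the filter on low counts only through the tumors. Prox1, a homeobox factor, rose from 3.97, 4.62, 5.02 and 3.99 CPM to 172, 463 and 270.2 CPM, with tumor b highest and a log2 fold change of 6.09 (SE 0.35), adjusted p = 1.6e-05.

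Targets that drive growth were higher too. Myc, a driver of ribosome production and cell growth, measured 22.9, 17.8, 22.7 and 23.5 CPM in non-tumor tissue and 60.2, 77.2 and 79.1 CPM in tumors, a log2 fold change of 1.73 (SE 0.13), adjusted p = 4.39e-05. Ccnd1, which encodes cyclin D1, measured 82.9, 64.1, 92.1 and 108 CPM against 250.4, 251 and 248 CPM, and its 3 tumor values lay closer to each other than the 4 non-tumor values did. Its log2 fold change was 1.53 (SE 0.16), adjusted p = 0.000135. Cd44 (2.34), Rnf43 (2.74) and Znrf3 (2.28), given as log2 fold changes, were also called higher, the last pair being ligases that remove WNT receptors. Sox9 (0.96) and Ephb2 (0.70) stayed below the fold limit. Ctnnb1, which encodes beta-catenin itself, had a log2 fold change of 0.56 (SE 0.11) with groups that did not overlap (adjusted p = 0.00286), also below the limit.

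Apc was lower in every tumor. The gene measured 94.5, 117, 126 and 111 CPM in the non-tumor tissues and 27.2, 31 and 13.6 CPM in tumors a, b and c. The highest tumor lay below the lowest non-tumor tissue, and the log2 fold change was -2.23 (SE 0.27), adjusted p = 0.000265. The floxed allele is present in both tissues, so this level does not check the labels, and counts over the gene do not tell the alleles apart.

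Secreted inhibitors of WNT rose in part, Notum among the steepest rises of all genes. Of 13 listed genes, 11 were tested, 5 were called higher and 1 lower (Sfrp4). Notum (ENSMUSG00000042988.10, chr11:120653788-120661175 on the minus strand), an enzyme that strips the lipid from WNT ligands, went from 0.741, 1.36, 0.536 and 0.570 CPM in non-tumor tissue to 163, 244 and 185 CPM in tumors. No non-tumor tissue came near the tumors, and the log2 fold change was 7.92 (SE 0.28), adjusted p = 6.77e-06. Notum had at most 20 counts in any non-tumor library, so this size rests on few non-tumor counts. Wif1, which binds WNT ligands, measured 3.84, 4.82, 6.36 and 2.44 CPM against 313, 446 and 488 CPM (6.56 on the log2 scale). Dkk2, a ligand of WNT co-receptors, measured 1.95, 0.679, 0.737 and 0.652 CPM against 77.5, 109.8 and 108 CPM (6.59). Apcdd1 (6.26) and Dkk3 (2.27) completed the set called higher. Sfrp4, a decoy receptor for WNT ligands, went the other way, at 2.56, 2.17, 6.29 and 2.85 CPM against 0.281, 0.387 and 0.413 CPM, a log2 fold change of -3.24 (SE 0.49), adjusted p = 0.000801.

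**Figure D2:**
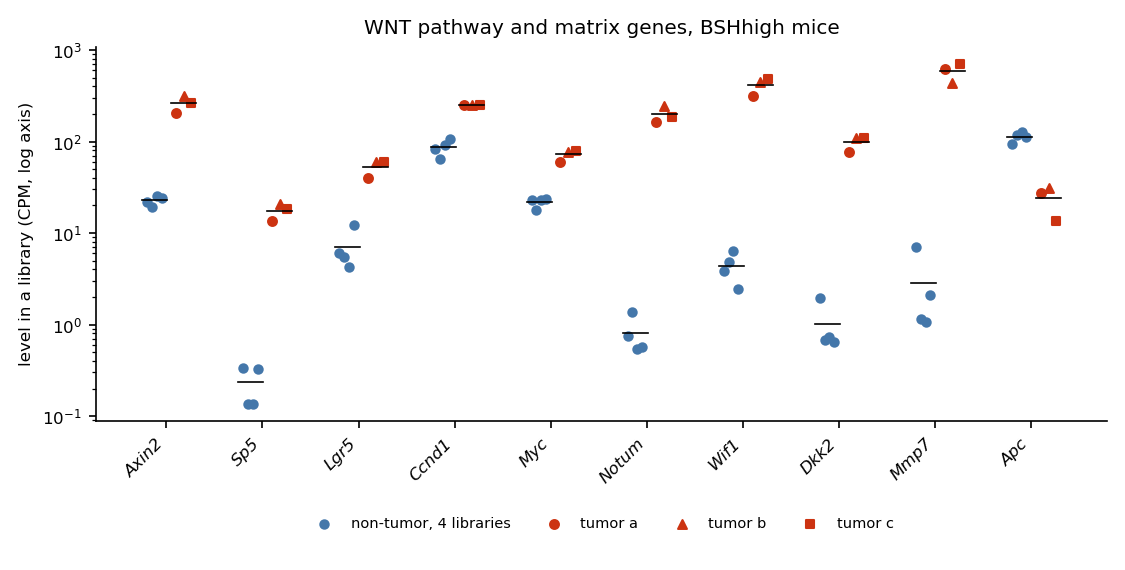
Level in CPM (log axis) of 10 genes in each non-tumor library (blue) and in tumors a, b and c (red circle, triangle and square), with the mean of each tissue as a black line. In the 9 genes left of Apc every tumor lies above every non-tumor tissue, and for Apc every tumor lies below.

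Stem cell and repair programs rose in part. Of 9 crypt base genes tested, 6 were called higher and none lower. Lgr5, the receptor that marks crypt base stem cells, measured 6.06, 5.43, 4.29 and 12.3 CPM in non-tumor tissue and 39.6, 59.3 and 60 CPM in tumors, a log2 fold change of 2.93 (SE 0.34), adjusted p = 0.000223. Of 13 genes of regenerating or fetal-like epithelium, 7 were called higher and 1, Anxa3, lower. Spp1, which encodes the secreted phosphoprotein osteopontin, went from 3.91, 1.36, 0.937 and 0.326 CPM to 79.6, 70.1 and 166 CPM (5.97 on the log2 scale). Ly6a (0.13), Anxa1 (0.32) and Areg (0.67) of the same list were not called.

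Cell division genes rose moderately. Of 23 cell cycle genes, 16 were called higher and none lower, with a median log2 fold change of 1.24. Plk1, a mitotic kinase, measured 14.2, 13.3, 10.5 and 18.6 CPM in non-tumor tissue and 49.2, 42.2 and 55 CPM in tumors (1.79 on the log2 scale). Mki67, the usual proliferation marker, measured 117, 98.2, 99.8 and 148 CPM against 181, 164 and 215 CPM. Its tumors all lay above its non-tumor tissues, but the log2 fold change of 0.69 (SE 0.16) was under the limit (adjusted p = 0.00678). Of 20 ribosome biogenesis genes, 7 were called higher and none lower, with a median of 0.78. The tissues did not overlap for any of the 20, as was the case for 62.1% of all genes.

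Most matrix-cutting enzymes rose. Of 12 metalloproteinase and inhibitor genes, 11 were called higher and none lower, with a median log2 fold change of 3.37. Mmp7, the epithelial member and also a WNT target, measured 7.07, 1.15, 1.07 and 2.12 CPM in non-tumor tissue and 621, 433 and 703 CPM in tumors, a log2 fold change of 7.67 (SE 0.64), adjusted p = 5.84e-05. Mmp10 measured 2.15, 2.85, 1.21 and 16.6 CPM against 359, 264 and 809 CPM, with non-tumor replicate 4 above the other 3 and a log2 fold change of 6.42. Mmp9 (5.93) and Mmp13 (5.55), which cut denatured and fibrillar collagen, also rose, and Timp3 (0.56) was not called. Of 17 fibroblast and collagen genes, 9 were called higher, among them Col1a1 at 2.31, and 2 lower, Lum and Col14a1, the latter not without non-tumor replicate 4 or in a fit of all 15 libraries.

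Absorptive colonocyte genes fell. Of 21 transport genes, 17 were called lower and none higher, with a median log2 fold change of -2.67. In bulk tissue, fewer cells of a type and less RNA per cell cannot be told apart. Slc26a3 (ENSMUSG00000001225.12, chr12:31390871-31473917 on the plus strand), the chloride and bicarbonate exchanger of the colon surface, measured 476, 585, 522 and 372 CPM in non-tumor tissue and 42.4, 17 and 3.72 CPM in tumors a, b and c. In proportion to their level the tumors differed among themselves by more than the non-tumor tissues did. No tumor reached the non-tumor values, and the log2 fold change was -4.54 (SE 0.73), adjusted p = 0.00105. Car4, a carbonic anhydrase of the brush border, measured 1267, 600.2, 764 and 825 CPM against 70, 5.66 and 9.45 CPM (-4.93 on the log2 scale). The water channel gene Aqp8 measured 235, 211, 264 and 353 CPM against 19.9, 6.53 and 2.63 CPM (-4.78). Tumor a was the highest of the 3 for both. Of 16 brush border and enzyme genes tested, 11 were called lower and none higher, and Krt20 (-1.21, adjusted p = 0.0825) was among the 5 not called.

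Mucus genes fell too. Of 15 goblet cell genes, 14 were called lower and none higher, with a median log2 fold change of -2.85, and Retnlb (-1.60) was not called. Muc2 (ENSMUSG00000025515.15, chr7:141690340-141754693 on the plus strand), the gel-forming mucin of the colon, measured 7000, 4445, 2563 and 4022 CPM in non-tumor tissue and 1212, 332 and 157 CPM in tumors, a log2 fold change of -2.99 (SE 0.71), adjusted p = 0.00717. Clca1, a secreted mucus-processing protein, measured 6742, 4162, 3591 and 3332 CPM against 418, 158 and 40.2 CPM (-4.44). Zg16, a lectin of the mucus layer, measured 9149, 4322, 3153 and 3840 CPM against 1208, 119 and 80.3 CPM, and its call (log2 fold change -3.45 (SE 1.01), adjusted p = 0.0183) was lost without tumor b (adjusted p = 0.0521). Atoh1 (-3.40) and Spdef (-2.66), transcription factors that set the goblet fate, were called lower too. Fcgbp (-3.44) had estimated counts that were not whole in all 7 libraries, so its reads are shared with other genes and its value is less certain.

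Enteroendocrine genes fell as well. Of 12 enteroendocrine genes tested, 11 were called lower and 1, the transcription factor gene Isl1, higher. Chga, a granule protein of most of these cells, measured 78.3, 83.2, 84.2 and 67.8 CPM in non-tumor tissue and 12.7, 10.8 and 10.6 CPM in tumors (-2.78 on the log2 scale, adjusted p = 7.89e-06). Insl5, a hormone of colonic L cells, fell from 81.6, 52, 61.3 and 105 CPM to 4.66, 0.968 and 0.620 CPM (-5.20). Isl1 measured 1.01, 1.97, 1.34 and 1.63 CPM against 6.73, 15.2 and 15.8 CPM. Of 8 tuft cell genes tested, 1 was called higher, Avil at 5.25, and 2 lower, against 14.6% and 15% of all genes. The defining genes Dclk1 (-0.97) and Pou2f3 (-0.24) were not called.

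Factors that hold intestinal identity were lower in part. Of 12 transcription factors, 5 were called lower, against 15% of all genes. Gata4 alone was called higher, against 14.6% of all genes, and not in a fit of all 15 libraries. Hnf4a, a factor of absorptive differentiation, measured 871, 893, 904 and 933 CPM against 412, 301 and 234 CPM, a log2 fold change of -1.51 (SE 0.19), adjusted p = 0.000287. Cdx1, a homeobox factor of the gut, stood at -1.86 on the log2 scale and was called lower. Cdx2, after which the promoter of the Cre transgene is named, measured 65.2, 16.9, 13 and 22 CPM against 29.9, 3.48 and 2.63 CPM. Its groups overlapped and it was not called (adjusted p = 0.253). Of 11 posterior Hox genes tested, 1 was called higher, Hoxa9 at 1.45, and none lower, against 14.6% and 15% of all genes. The median log2 fold change of the 11 was -0.97.

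Sequences around the start of some of these genes are shown, most of them because they carry letters that the WNT and intestinal factors are known to bind. Promoters of 250 bases before to 50 after the start were taken from RefSeq (GRCm38.p6) and matched by symbol for 11571 of 15642 gene symbols tested. The letters CTTTGAT or CTTTGAA (TCF/LEF), TTTATNG (CDX) and CAAAGTCCA (HNF4) were searched on both strands, and CAAAG of the HNF4 letters also occurs in the TCF/LEF letters read on the other strand. Capitals mark the matches, and CTATAAA, the CDX letters in Car4 and read on the other strand, also contains TATAAA. Where a gene has several starts the first listed is shown. Sp5 (chr2:70474673-70474972, plus strand) and Mmp7 (chr9:7691840-7692139, plus strand) rose and hold a TCF/LEF match, Mmp7 with a CDX match as well. Aqp8 (chr7:123462044-123462343, plus strand) and Car4 (chr11:84957504-84957803, plus strand) fell and hold a CDX match. The TCF/LEF match of Mmp7 and the CDX match of Car4 lie after the start and not upstream of it. Ccl28 (chr13:119623569-119623868, plus strand), described further on, holds none of the 3. The first 4 are shown for their matches, which some other genes that moved lack. The promoters of Axin2, Ascl2 and Prox1, which rose, and of Slc26a3, which fell, hold none of the 3. Wif1 and Dkk2 rose and hold a CDX match with no TCF/LEF match.
Sp5: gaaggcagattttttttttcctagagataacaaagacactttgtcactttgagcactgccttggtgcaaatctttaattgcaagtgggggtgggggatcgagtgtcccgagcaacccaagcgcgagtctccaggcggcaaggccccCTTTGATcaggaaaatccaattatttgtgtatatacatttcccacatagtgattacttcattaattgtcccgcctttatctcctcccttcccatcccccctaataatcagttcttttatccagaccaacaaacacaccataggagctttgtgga
Mmp7: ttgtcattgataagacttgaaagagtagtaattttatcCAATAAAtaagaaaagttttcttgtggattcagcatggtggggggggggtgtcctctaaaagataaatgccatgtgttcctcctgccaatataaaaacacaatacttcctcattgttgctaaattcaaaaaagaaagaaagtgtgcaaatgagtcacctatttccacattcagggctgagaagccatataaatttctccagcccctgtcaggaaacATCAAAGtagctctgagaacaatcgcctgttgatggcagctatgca
Aqp8: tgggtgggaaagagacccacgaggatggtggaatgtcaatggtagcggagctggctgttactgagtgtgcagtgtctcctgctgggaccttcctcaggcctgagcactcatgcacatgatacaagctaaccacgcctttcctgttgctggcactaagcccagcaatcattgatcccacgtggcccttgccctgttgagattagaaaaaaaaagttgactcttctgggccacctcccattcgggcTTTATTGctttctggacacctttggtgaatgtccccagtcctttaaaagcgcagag
Car4: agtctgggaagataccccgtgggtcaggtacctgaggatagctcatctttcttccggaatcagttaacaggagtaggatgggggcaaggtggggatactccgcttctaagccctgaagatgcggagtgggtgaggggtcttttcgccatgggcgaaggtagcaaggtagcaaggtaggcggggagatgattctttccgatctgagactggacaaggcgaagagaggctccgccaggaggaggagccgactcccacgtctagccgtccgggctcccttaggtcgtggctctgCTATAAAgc
Ccl28: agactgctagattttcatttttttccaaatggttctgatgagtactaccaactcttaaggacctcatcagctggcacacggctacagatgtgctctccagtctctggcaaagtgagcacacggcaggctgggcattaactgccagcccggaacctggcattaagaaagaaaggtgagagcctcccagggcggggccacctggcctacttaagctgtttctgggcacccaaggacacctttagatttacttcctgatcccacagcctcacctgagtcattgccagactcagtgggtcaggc

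The TCF/LEF letters were present in 7.54% of promoters of all genes tested, in 10.2% of those of genes called higher and in 7.51% of those of genes called lower. Among WNT targets 3 of 14 promoters held them, and among transport genes none of 13 and among secreted WNT antagonists none of 6. The CDX letters were in 8.83% of all promoters, 11% of those called higher and 10.5% of those called lower, and in 3 of 13 for the transport genes and 2 of 6 for the secreted WNT antagonists. HNF4 letters were rare, at 0.553% of all promoters. A match describes this window only and is not shown to be a bound site.

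Bile acid receptor genes fell in the tumors. Of 16 genes of bile acid sensing and transport, 11 were tested, 7 were called lower and 1 higher, and Gpbar1 was too low to test. Nr1h4 (ENSMUSG00000047638.15, chr10:89454234-89533585 on the minus strand), which encodes FXR, measured 51.7, 40, 44.5 and 46.7 CPM in the non-tumor tissues and 18, 10.4 and 5.16 CPM in tumors a, b and c. Every tumor lay below every non-tumor tissue, and the log2 fold change was -2.04 (SE 0.36), adjusted p = 0.0016. Vdr, the vitamin D receptor, which also binds lithocholic acid, measured 353, 382, 409 and 329 CPM against 67.8, 45.4 and 36.5 CPM, a log2 fold change of -2.88 (SE 0.22), adjusted p = 4.18e-05. Nr1i2, which encodes the xenobiotic receptor PXR, was lower by the same test (-2.13), as were the export pump genes Abcb1a (-2.57) and Abcc3 (-1.43).

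Abcc2, an export pump of conjugates on the apical membrane, was the exception in this list. It measured 1.35, 1.56, 1.67 and 0.244 CPM in non-tumor tissue and 38.2, 74.6 and 62.9 CPM in tumors, a log2 fold change of 5.56 (SE 0.41), adjusted p = 3.95e-05. Rxra (-0.93), Slc10a2 (0.82) and Slc51b (-1.64) were not called. Of 12 xenobiotic and steroid enzymes, 10 were called lower and none higher, and Sult1a1, a sulfotransferase, went from 108, 92.3, 129 and 63.4 CPM to 7.91, 2.71 and 2.22 CPM. Of 15 genes of fatty acid oxidation, 6 were called lower, among them Ppara (-2.85) and Cpt1a (-1.35), and 1 higher, Pdk4, though not in a fit of all 15 libraries. Of 13 glycolysis and hypoxia genes, 1 was called higher, the lactate exporter gene Slc16a3 (1.89), and 1 lower, Hk1 (-1.07). Over all genes 14.6% were called higher and 15% lower.

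Growth factor and prostaglandin genes were called in both directions, where 14.6% of all genes were called higher and 15% lower. Of 11 EGF family genes tested, 2 ligands were called higher, Ereg (3.47) and Nrg1 (3.0), and 4 genes lower, Egf (-3.66), the receptors Erbb2 (-1.27) and Erbb3 (-1.73) and the inhibitor Lrig1 (-1.11). In the BMP pathway 6 of 14 genes were called higher and 4 lower. The ligands Bmp7 (3.49) and Bmp4 (1.68) rose and Bmp2 (-1.50) fell, and the antagonist gene Chrdl1 (-3.19) fell. Of 10 prostaglandin genes, 3 were called higher and 4 lower. Ptgs2, which encodes the inducible cyclooxygenase, measured 27.1, 10.4, 5.22 and 6.03 CPM against 32.2, 47.8 and 156 CPM, with tumor c highest, and Hpgd, the enzyme that breaks prostaglandins down, measured 197, 225, 203 and 135 CPM against 26.6, 12 and 7.95 CPM.

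**Figure D3:**
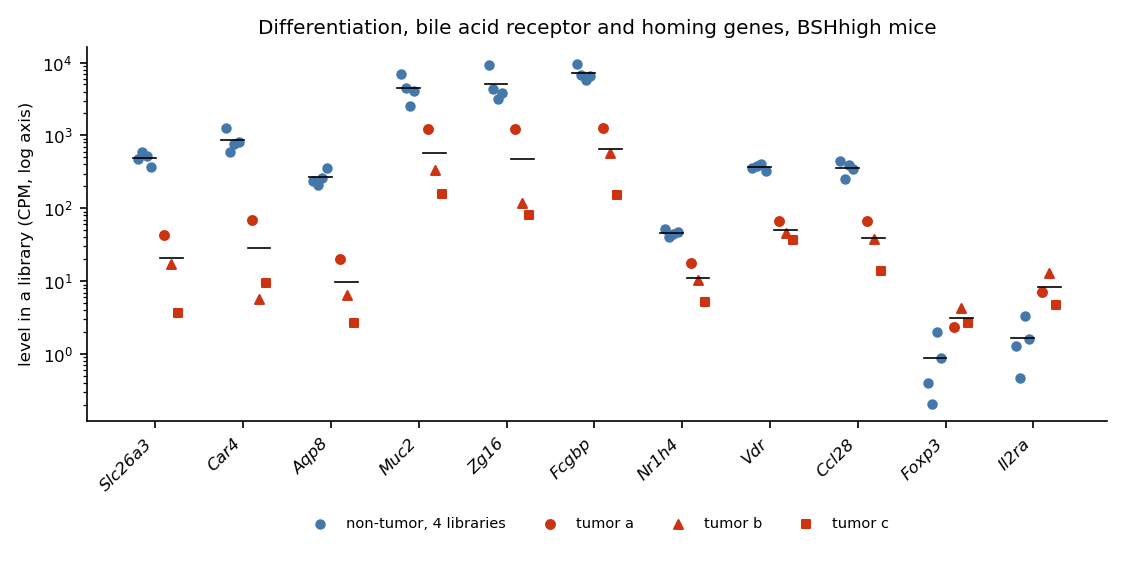
Level in CPM (log axis) of 11 genes of absorptive and goblet cells, bile acid sensing and lymphocyte homing in each non-tumor library (blue) and in tumors a, b and c (red circle, triangle and square), with tissue means as black lines. The 9 genes up to Ccl28 lie lower in every tumor, and in 8 of them tumor c is the lowest, while Foxp3 and Il2ra lie higher in every tumor.

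The tissues also differed in muscle and nerve. All 13 smooth muscle genes were called lower, with a median log2 fold change of -3.85, and their summed level was 4452 to 5776 CPM in non-tumor tissue against 560 (a), 416 (b) and 353 CPM (c) in tumors. Myh11, the smooth muscle myosin, measured 771, 704, 870.0 and 709 CPM against 42.7, 33.1 and 24.1 CPM, a log2 fold change of -4.52 (SE 0.22), adjusted p = 1.08e-05. Of 13 neuron and glia genes tested, 11 were called lower and none higher. Smooth muscle genes thus gave a smaller share of the counts in tumors, and the part of this in the other differences was not tested. Of 15 squamous epithelium genes, only 9 passed the filter on low counts, and 7 of these were called higher. Krt4 stood at 1 count or none in each non-tumor library and 4.55, 11.3 and 9.04 CPM in the tumors. Krt4, Dsg3 (at most 0.337 CPM in non-tumor tissue) and Krt15 (at most 0.747 CPM) passed the filter only through the tumors, where they are high. The count of 7 is thus set in part by the filter. The defining squamous genes Krt5 and Trp63 were too low to test. Of 10 endothelial genes, 4 were called higher and 1 lower, against 14.6% and 15% of all genes.

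Ccl28 was among the genes that fell. It encodes a chemokine of mucosal epithelium that draws in cells bearing CCR10 or CCR3. Ccl28 (ENSMUSG00000074715.3, chr13:119623819-119654359 on the plus strand) measured 447, 256, 388 and 348 CPM in the non-tumor tissues, a mean of 359.7 ± 80 (SD, n = 4), and 67.6, 37.6 and 13.9 CPM in tumors a, b and c, a mean of 39.7 ± 26.9 (SD, n = 3). No tumor reached the lowest non-tumor tissue, with a log2 fold change of -3.18 (SE 0.50), adjusted p = 0.000931, and all 14 alternative fits kept the call. Of 13 homing and chemokine genes, 4 were called higher and 2, Ccl28 and Ccr10, lower, against 14.6% and 15% of all genes. Ccr10 lost the call in limma-voom (adjusted p = 0.0652) and without tumor a (0.0568) or b (0.0861), and did not pass the filter on low counts without non-tumor replicates 1, 3 or 4. Cxcr6, a receptor of resident T cells, measured 1.95, 1.56, 3.62 and 3.42 CPM against 12.1, 9.44 and 10.9 CPM (2.04). Cxcl9 (2.53) and Cxcl10 (1.83), interferon-induced chemokines, were called with overlapping tissues. Both lost the call in limma-voom (adjusted p 0.0555 and 0.0536) and in a fit of all 15 libraries (0.0533 and 0.0525). They also lost it without tumor a, without tumor b and without non-tumor replicates 1 or 2 (Cxcl9 also without replicate 3). Without each of those libraries but replicate 3 the list held 2 called higher.

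Some Treg genes were called higher in tumors. Of 10 tested, 5 were called higher, 4 were not called and 1, Ikzf2, was called lower, a call lost without non-tumor replicate 2 or tumor c. Foxp3, the factor that defines Treg cells, measured 0.404, 0.204, 2.01 and 0.896 CPM in non-tumor tissue and 2.36, 4.31 and 2.63 CPM in tumors. Its log2 fold change was 1.81 (SE 0.64), adjusted p = 0.0379, and the call was lost without non-tumor replicates 1, 2 or 4 and without tumors b or c (adjusted p 0.0576 to 0.127). Il2ra, the high-affinity interleukin-2 receptor chain, measured 1.28, 0.476, 3.35 and 1.63 CPM against 7.13, 12.9 and 4.75 CPM, a log2 fold change of 2.29 (SE 0.58), adjusted p = 0.00929, called in all 14 alternatives. Ctla4, an inhibitory receptor, measured 0.673, 0.136, 1.54 and 2.20 CPM against 4.88, 7.26 and 5.58 CPM (2.39).

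General T cell genes were called in part. Of 12 tested, 4 were called higher and none lower. The count was 2 without tumor a, without tumor b or without non-tumor replicate 4, and 8 without non-tumor replicate 3. Cd4 measured 6.20, 2.51, 11.3 and 8.71 CPM against 9.60, 10.3 and 5.16 CPM and Cd8a 1.82, 0.611, 2.81 and 0.652 CPM against 0.842, 0.678 and 0.258 CPM. Both pairs of tissues overlapped and neither gene was called (adjusted p = 0.71 and 0.118). Of 9 cytotoxic lymphocyte genes tested, 3 were called higher, Gzma (1.81), Gzmb (2.43) and Trdc (3.09), and 1 lower, Cd160 (-1.99). Over all genes 14.6% were called higher and 15% lower. The count lower in this list ranged from 0 to 2 over 14 alternative fits and differed in 6 of them.

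B and plasma cell genes were lower. Of 15 tested, 12 were called lower, among them the epithelial gene Pigr, and 2 higher, Sdc1 and Prdm1. Sdc1 is also made by epithelium, so neither count is of lymphocyte genes alone. Ms4a1, the B cell surface gene for CD20, measured 7.34, 15.6, 70.4 and 13.4 CPM in non-tumor tissue and 1.18, 0.436 and 0.0516 CPM in tumors. Non-tumor replicate 3 stood above the other 3, and without it the log2 fold change went from -5.60 to -4.46 (adjusted p = 0.00204). Igha, the IgA heavy chain, measured 2341, 2284, 1529 and 7918 CPM against 477, 405 and 664 CPM, with non-tumor replicate 4 highest. Pigr, the epithelial receptor that carries IgA into the lumen, measured 8353, 5015, 7156 and 7040 CPM against 2051, 1285 and 864 CPM (-2.30 on the log2 scale, adjusted p = 0.000532).

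Of 13 macrophage genes, 3 were called higher and 1, Cd163, lower, against 14.6% and 15% of all genes. The count higher was 5 without non-tumor replicate 4 and 6 without tumor c. Arg1, an enzyme that uses up arginine, measured 1.21, 4.89, 0.737 and 1.06 CPM against 85.4, 31.8 and 77.6 CPM, a log2 fold change of 5.02 (SE 0.61), adjusted p = 0.000281. The general markers Adgre1 (0.08) and Csf1r (0.75) were not called. Of 13 neutrophil genes and chemokines tested, 7 were called higher and 1 lower, and 12 higher without non-tumor replicate 1. Cxcl5, a neutrophil attractant, measured 0.741, 0.543, 3.28 and 9.61 CPM against 102, 151 and 229 CPM. Ly6g, the gene of the usual neutrophil surface marker, fell from 272, 212, 239.7 and 243 CPM to 83.2, 45 and 26.4 CPM, so the markers of this list did not move as a set. The 13 genes summed to 263.4 to 538.5 CPM in non-tumor tissue, much of it from Ly6g. Whether Ly6g marks neutrophils in these tissues was not tested. Of 13 defense genes, 7 were called higher, among them Lcn2 (6.05) and Reg3b (5.28), and 3 lower, Saa1, Wfdc2 and Reg4.

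Of 9 MHC class II genes none was called higher and 2, H2-Ob and H2-Oa, lower, against 15% of all genes called lower. Without tumor b both lost the call (adjusted p 0.0518 and 0.0646), and H2-Oa also without tumor c (0.0601). The summed level of the 9 was 590 to 1770 CPM in non-tumor tissue against 1500 (a), 668 (b) and 490 CPM (c) in tumors. Of 14 interferon-stimulated genes, 3 were called higher and 1 lower, against 14.6% and 15% of all genes. The count higher was 1 without tumor a or without non-tumor replicates 1, 2 or 3. Usp18, a brake on interferon signaling, measured 3.70, 2.79, 3.28 and 2.44 CPM against 42, 34 and 43.4 CPM (3.69). Tumor a was the highest tumor for 13 of the 14 and for all 9 MHC class II genes.

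Outside the lists, the 10 steepest rises among protein-coding genes with more than 3 counts in a library of each tissue included Onecut2, a homeodomain factor, at 0.337, 0.611, 0.201 and 0.0814 CPM against 111, 86.8 and 192 CPM. Cfi, a complement regulator, went from 0.337, 0.272, 0.201 and 0.244 CPM to 93.5, 69.8 and 70.3 CPM (8.16 on the log2 scale), with an SE of 0.19. Slc30a2, a zinc transporter, went from 0.471, 1.02, 0.201 and 0.163 CPM to 101, 202 and 162 CPM (8.33). In any non-tumor library Onecut2 had at most 9 counts, Cfi at most 5 and Slc30a2 at most 15. These genes passed the filter on low counts only through the tumors, where they are high. The sizes of their rises thus rest on few non-tumor counts. Among the steepest falls were Foxp2 (-6.58), Rims1 (-6.24) and Vip, a neuropeptide of enteric neurons. Vip stood at 35.4, 50.2, 23.2 and 40.6 CPM in non-tumor tissue and 2.02, 0 and 0 CPM in tumors a, b and c. Its log2 fold change of -5.86 rested on tumor a and was -12.2 without it, a size that depends on the prior count. A pair of mucosal pentraxin genes moved in opposite directions. Mptx2, with at most 5 counts in any non-tumor library, rose from 0.337, 0.204, 0.0670 and 0.407 CPM to 240.4, 502 and 95.8 CPM. It passed the filter on low counts only through the tumors. Mptx1 fell from 173, 413, 688 and 316 CPM to 3.59, 4.31 and 4.91 CPM. Both had estimated counts that were not whole in all 7 libraries, so reads are split between similar genes and their values are uncertain. Prg4, called lower, stood at 0.808, 70.4, 1.14 and 1.47 CPM in non-tumor replicates 1 to 4 and at 0.112, 0.242 and 0 CPM in tumors. Without replicate 2 its log2 fold change went from -7.17 to -3.16, and the call was lost without any 1 of the 3 tumors.

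The 3 tumors were not equally far from non-tumor tissue. Among the 2284 genes called higher, tumor a was the nearest to the non-tumor level for 55.3%, tumor b for 30.9% and tumor c for 13.8%. Among the 2349 called lower the shares were 69.6%, 19.5% and 10.9%. Tumor a held the highest tumor level for all 16 brush border genes, all 15 goblet cell genes and 19 of 21 transport genes. The summed goblet cell level was 19880 to 38956 CPM in non-tumor tissue and 5510 (a), 1788 (b) and 932 CPM (c) in tumors. What share of non-tumor tissue each tumor sample held was not tested.

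The same comparison in BF BSHlow mice, which shares no library with the one above, called 2443 of 15179 genes higher (16.1%) and 2672 lower (17.6%). Of the genes called higher in BF BSHhigh tumors, 1866 were also called higher in BF BSHlow tumors, 81.7% of the first list and 76.4% of the second. Of those called lower, 1970 were shared, 83.9% and 73.7%. No gene was called in opposite directions. WNT targets gave 18 of 19 higher in BF BSHlow mice with a median of 2.95, against 17 of 19 and 2.93 in BF BSHhigh mice. Goblet cell genes had a median of -4.55 against -2.85, and transport genes -4.81 against -2.67.

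Whether the tumor effect differed between the colonizations was tested by an interaction term over all 15 libraries of 12 weeks. It called 161 of 16454 genes (0.978%), 160 with a more positive effect in BF BSHhigh mice and 1, Dync1i1, with a more negative one. The Dync1i1 call was lost in limma-voom, without a filter on low counts and on leaving out any 1 library but BF BSHlow tumor 1 (adjusted p 0.0511 to 0.164). Of the 160, 154 were called lower in BF BSHhigh tumors, 5 were not called, none was called higher, and 159 were called lower in BF BSHlow tumors. For these genes the fall in tumors was thus smaller in BF BSHhigh mice. The count rested on the tool and on the libraries: limma-voom called none at the same limits (740 at an unadjusted p under 0.05 with the fold limit, against 901 in edgeR), DESeq2 called 379 and 8, and the count of 160 became 334 without tumor c and 86 without tumor a.

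Ccl28 was one of the genes whose effect differed. In this fit it stood at 364 ± 80.9 CPM (SD, n = 4) in BF BSHhigh and 312 ± 58.8 CPM (n = 4) in BF BSHlow non-tumor tissue. In tumors it stood at 40.1 ± 26.9 CPM (n = 3) and 2.27 ± 0.733 CPM (n = 4), and the tumor values, 14.1 to 67.9 and 1.24 to 2.84 CPM, did not overlap. The interaction was 3.92 (SE 0.55, adjusted p = 0.00595). Slc26a3 fell in BF BSHlow tumors to 0.275 ± 0.229 CPM and in BF BSHhigh tumors to 21.2 ± 19.7 CPM, an interaction of 6.82 (SE 0.93, adjusted p = 0.00595). Its BF BSHlow tumor values, 0 to 0.549 CPM, were close to the floor, so this size is uncertain. Vdr had an interaction of 1.93 (SE 0.37, adjusted p = 0.0227), while for Nr1h4 (1.99, SE 0.47, adjusted p = 0.0639) and Foxp3 (2.26, SE 1.04, adjusted p = 0.51) the term did not pass.

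**Figure D4:**
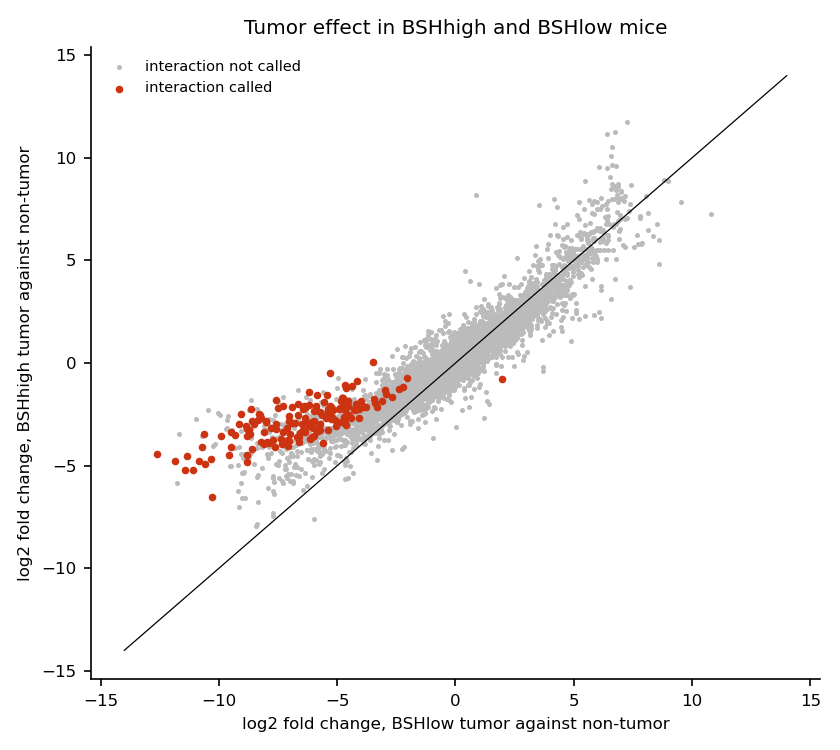
Log2 fold change of tumor against non-tumor tissue in BF BSHhigh mice (vertical) and BF BSHlow mice (horizontal) for genes tested in both, with equal effects on the black line and genes called by the interaction term in red. All called genes but Dync1i1 lie above the line, on the side of a smaller fall in BF BSHhigh tumors.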

How the data were processed

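Colon RNA was sequenced from 23 samples, of which the 15 of 12 weeks were used (8 columns of other samples were not). The deposited values are expected counts per gene, which the authors made with Cutadapt, STAR, Picard and RSEM on mm10 (versions and strand setting not given in the sources used here). The labels name a total RNA kit and the study's methods an mRNA kit. Expected counts were rounded, 4.34% of values not being whole. Genes passing filterByExpr went into edgeR 4.0.16 (R 4.3.3; glmQLFit and glmQLFTest, TMM scaling), fitting only the libraries compared. An earlier run used a prior count of 2 in fitted fold changes, and the default of 0.125 was taken after its results were seen. DESeq2 1.42.0, limma-voom (limma 3.58.1), other scaling, other filters and leaving out each library were alternatives. On simulated data for the BF BSHhigh comparison (15409 genes), the edgeR test recovered 94 of 100 genes changed by 2 and 99 of 100 changed by 3 on the log2 scale, and called 6 unchanged genes. The changed genes all had a mean above 5 CPM, and counts were drawn with edgeR's own estimates of spread. Recovery of genes at lower levels was not tested, and far fewer genes were changed there than were called in the data. Without a known strand setting, reads of a gene and an overlapping gene on the other strand may not be told apart. Named genes were 24 fixed genes, up to 3 per list and direction, the 10 steepest protein-coding genes per direction and up to 5 per sign of the interaction, with some list members added after their values were seen. Some list members are not reported here by name. The members and lists were chosen with earlier results of these data known.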

Additional observations from a re-analysis of the deposited data

Results flagged for a closer look

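In 20 of 162 named genes (12.3%) 1 of the 4 non-tumor libraries stood apart from the other 3 by a gap test (Dixon, critical value 0.829), which chance does in about 1 in 20 groups. In replicate 3 these were the B cell genes Ms4a1 (70.4 CPM), Cr2 (56.9) and Pax5 (43.9), H2-Ob (47.7), Il22ra2 (34.5), Trac (6.03) and Sfrp4 (6.29), all high, Rims1 (12.7), which was low, and Krt4 (0.0670). In replicate 4, Igfbp4 (141.9 CPM), Col1a1 (138.0) and Mmp10 (16.6) were high and Klf4 (539.5) low. In replicate 2, Prg4 (70.5 CPM), Sdc1 (243.8), Arg1 (4.89) and Irx4 (0.272) were high and Myc (17.8) low. In replicate 1, Dkk2 (1.95 CPM) and Sntg2 (8.35) were high.

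For 17 named genes the tumor effect differed between BF BSHhigh and BF BSHlow mice by the interaction term in edgeR, given here as the log2 difference of the effects. It was 7.18 for Zg16, 7.05 for Aqp8, 6.82 for Slc26a3, 6.57 for Slc13a2, 6.40 for Atp12a, 5.62 for Car4, 5.57 for Saa1, 3.92 for Ccl28, 3.75 for Mptx1, 3.53 for Fcgbp, 3.46 for Muc2, 3.18 for Chgb, 2.45 for Ly6g and 1.93 for Vdr. Insl5 (6.24) and Gcg (5.42) had at most 3 counts in every BF BSHlow tumor, so their size depends on the prior count. In BF BSHlow tumors Aqp8 stood at 0 to 0.220 CPM, Slc13a2 at 0.0541 to 0.260 and Slc26a3 at 0 to 0.549. These values are also close to the floor, so the sizes for these genes are uncertain too. Dync1i1 (-2.75) was the only one with the other sign, and its call was lost on leaving out any 1 library but BF BSHlow tumor 1 (adjusted p 0.0511 to 0.122). The Aqp8 call was lost without BF BSHhigh non-tumor replicates 1 or 3, BF BSHhigh tumor a or BF BSHlow tumors 2, 3 or 4 (adjusted p 0.0509 to 0.0696).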

How the results depend on the processing

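Counts of genes called in BF BSHhigh tumors were 2132 to 2587 higher and 2180 to 2705 lower under other tools, scalings, filters and all 15 libraries, 2084 to 2361 and 2125 to 2589 when 1 library was left out, and 4819 and 4509 on the adjusted p alone. With a prior count of 2 in the fold change, an alternative added after the data were seen and the setting of the first run, they were 2251 and 2327. In BF BSHlow tumors leaving out 1 library gave 2349 to 2569 higher and 2620 to 2942 lower. The interaction gave 379 positive and 8 negative genes in DESeq2, 0 and 0 in limma-voom, and 86 to 334 and 0 to 5 when 1 library was left out. Of the alternatives for named genes, 2195 values kept the call and 66 lost it, with none reversed, and the median of all genes moved between 0.007 and 0.049. With the replicate block, BF BSHlow tumors gave 2377 higher and 2632 lower in place of 2443 and 2672. The numbers there were not taken as a pairing (correlations of deviations 0.212, -0.128, -0.00142 and 0.0901). No paired analysis was possible for BF BSHhigh tumors because their columns carry no replicate number.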

Other observations

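The adipocyte gene Cidec varied among non-tumor tissues (12.7, 1.43, 2.41 and 23.2 CPM in replicates 1 to 4) and measured 1.91, 0.0484 and 0.465 CPM in tumors a, b and c, and the other 5 adipocyte genes were too low to test. The skeletal muscle gene Ckm measured 6.06, 5.91, 10.9 and 7.90 CPM against 0.337, 0 and 0.207 CPM and was called lower.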
